A study of Homo sapiens with 2 samples.

Results

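The genes described here are the histone genes measured in side population and non-side population cells of J82, an established human bladder cancer cell line. The side population (SP) was sorted as cells low in the DNA dye Hoechst, and the non-side population (NSP) as the rest. Both came from cells grown in DMEM with serum, and no treatment is given in the labels. Each population was measured once, by a whole-transcript exon array on total RNA, so there is 1 array per population. The members were found by gene symbol alone, old or current (for example HIST1H1E or H1-4), among rows of the array table that carry a single symbol. This gave 61 histone genes of 14232 named genes, each measured by 1 row of the table. By symbol, 51 of these were placed in the replication-dependent class and 10, H2AX among them, in the replication-independent class. When in the cell cycle each gene is transcribed was not measured, so the class is a label and not a result.

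Histones are the proteins around which DNA is wound: H2A, H2B, H3 and H4 form the core of the nucleosome and H1 binds the linker DNA. Replication-dependent histone genes lie in clusters, are transcribed mainly in S phase, and give mRNAs that end in a stem-loop in place of a poly(A) tail. Replication-independent variants such as H2A.Z and macroH2A are made throughout the cell cycle from genes outside the clusters and replace core histones in part of the chromatin. Hoechst binds DNA and is pumped out by membrane transporters, so the staining of a cell depends on its DNA content as well as on efflux. The cell cycle distribution of the sorted cells is not given in the sources used here.

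All values are log2 signals. A difference is the SP value minus the NSP value, and a fold is 2 to the power of its size. With 1 array per population no replicate check, error between samples or p-value can be given, and the statements are descriptions of 2 arrays. A gene is called at or above the floor here when its higher value reached the median of all array values, 7.44. In a mixed population, fewer cells carrying a transcript and less transcript per cell cannot be told apart. Many histone genes of a family are near-identical copies, so the value of a single gene may include signal from another copy.

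The SP array spanned 2.15 to 13.99 with a median of 7.43, and the NSP array 2.11 to 13.93 with a median of 7.44. All 3 dye transporter genes had the higher value in SP: ABCB1 at 9.87 against 9.17, ABCC1 at 10.50 against 10.12 and ABCG2 at 6.14 against 5.69, the last under the floor on both arrays. Of 5 urothelial or epithelial markers 4 reached the floor, with KRT8 at 13.18 in SP and 12.77 in NSP. EPCAM was under the floor at 4.42 on both. Of the markers of other cell types, 1 of 3 measured immune markers (CD14), 0 of 5 endothelial, 0 of 2 erythroid and platelet, and 3 of 5 fibroblast markers (LUM, PDGFRB and COL1A1) reached the floor.

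The promoters of the members differ by family, and those that carry the findings are shown before the values. They are the gene with the largest SP excess at or above the floor in each of the 5 families, followed by H2AZ1 and H2AX, which had the lowest differences at or above the floor. Each is the 150 bases just before the transcription start, 5′ to 3′ on the gene's strand, from RefSeq (GRCh38.p14). Capitals mark 4 motifs searched on both strands: the TATA box TATAAA, the CCAAT box CCAAT, the octamer ATTTGCAT found in H2A and H2B promoters, and the H1 box AAACACA.
H1-4 (chr6:26156179-26156328, plus strand): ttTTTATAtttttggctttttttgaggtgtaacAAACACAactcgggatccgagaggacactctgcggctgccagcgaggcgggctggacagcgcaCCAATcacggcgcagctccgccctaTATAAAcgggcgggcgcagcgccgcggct
H2AC21 (chr1:149887966-149888115, minus strand): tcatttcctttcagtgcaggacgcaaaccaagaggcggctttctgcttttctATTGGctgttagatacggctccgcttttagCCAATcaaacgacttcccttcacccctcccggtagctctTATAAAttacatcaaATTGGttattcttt
H2BC21 (chr1:149886683-149886832, minus strand): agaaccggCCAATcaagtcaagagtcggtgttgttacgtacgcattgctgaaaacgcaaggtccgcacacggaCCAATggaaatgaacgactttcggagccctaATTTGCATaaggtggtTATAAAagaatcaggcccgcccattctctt
H3C2 (chr6:26032100-26032249, minus strand): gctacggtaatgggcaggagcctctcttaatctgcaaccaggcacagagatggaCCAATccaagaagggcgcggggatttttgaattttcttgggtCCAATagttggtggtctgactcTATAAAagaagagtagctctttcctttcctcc
H4C2 (chr6:26027284-26027433, minus strand): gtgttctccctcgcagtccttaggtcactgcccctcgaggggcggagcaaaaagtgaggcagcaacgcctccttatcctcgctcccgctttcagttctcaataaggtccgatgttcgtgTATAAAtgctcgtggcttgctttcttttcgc
H2AZ1 (chr4:99950276-99950425, minus strand): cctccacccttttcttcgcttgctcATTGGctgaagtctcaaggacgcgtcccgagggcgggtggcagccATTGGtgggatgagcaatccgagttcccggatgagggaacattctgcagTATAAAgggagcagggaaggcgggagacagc
H2AX (chr11:119095466-119095615, minus strand): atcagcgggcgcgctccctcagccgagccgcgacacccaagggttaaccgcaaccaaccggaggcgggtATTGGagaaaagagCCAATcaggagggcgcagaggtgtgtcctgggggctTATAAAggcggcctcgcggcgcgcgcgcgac

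The letters followed the families. Of the 61 members 55 had a promoter in the RefSeq table, and the 250 bases before the most upstream start of each were searched. The H1 box was present in 6 of 6 replication-dependent H1 promoters and in none of the 40 other replication-dependent promoters, against 4.98% of 27305 gene promoters. The octamer was present in 10 of 13 H2B and 8 of 10 replication-dependent H2A promoters and in no H1, H3 or H4 promoter, against 1.67% of all. Some H2A and H2B genes lie head to head, with starts 194 to 248 bases apart. Their searched stretches overlap, so the same octamer or CCAAT box can be counted for both genes. A CCAAT box was found in 40 of 46 replication-dependent promoters (33.0% of all), and 6 of the 9 H4 promoters were the ones without it. TATAAA was found in 30 of 46 (11.2% of all). H4C2 above carries TATAAA alone, starting 31 bases before the start, and H1-4 carries an H1 box 117 bases, a CCAAT box 54 bases and a TATA box 29 bases before it, with TATAAA on the opposite strand 148 bases before it. None of the searched motifs contains another, although TATAAA and its reverse complement can overlap. A match is a description of the letters, not of binding.

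Most replication-dependent histone genes had the higher value in SP, while the variant genes at or above the floor split much as all genes that reached it did. Of the 26 histone genes at or above the floor, 17 (65.4%) had the higher value in SP, against 40.1% of the 7549 named genes that reached it. Over all 61 the count was 36 (59.0%), against 49.2% of all named genes. Scaling narrowed this gap. After removal of a trend on signal level the count was 34, against 7336 of the 14232 named genes. After quantile normalisation it was 34, against 7417. At or above the floor the shares were 69.2% against 48.7% after trend removal, and 65.4% against 45.8% after quantile normalisation. The median difference was 0.04 over the 61 and 0.08 over the 26, against 0.00 over all named genes and -0.05 over those at or above the floor. The 18 replication-dependent genes at or above the floor held 14 with the higher value in SP, with a median difference of 0.14. The 8 replication-independent genes held 5 with the lower value (62.5%, against 59.6% of the 7549 genes), with a median of -0.04, and 4 after removal of a trend on signal level. Counting those under the floor, 3 of 10 (30.0%) were higher in SP and 7 lower, against 49.2% higher of all named genes. Because the floor was set on the higher value, H4C2 and H1-9P passed it only through SP, where they are higher. With both values at or above it, 15 of 24 histone genes (62.5%) were higher in SP, against 39.2% of the 6994 named genes that met the same rule. The 24 comprise 17 replication-dependent genes, of which 13 were higher, and 7 replication-independent genes, of which 2 were. Only 2 of the 26 were at least 1.5-fold higher in SP (7.69%, against 3.1% of the 7549 genes), and 0 were at least 1.5-fold lower (against 1.43%). Counts this small, in 1 array per population, do not separate the histone share from that of all genes.

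**Figure D1:**
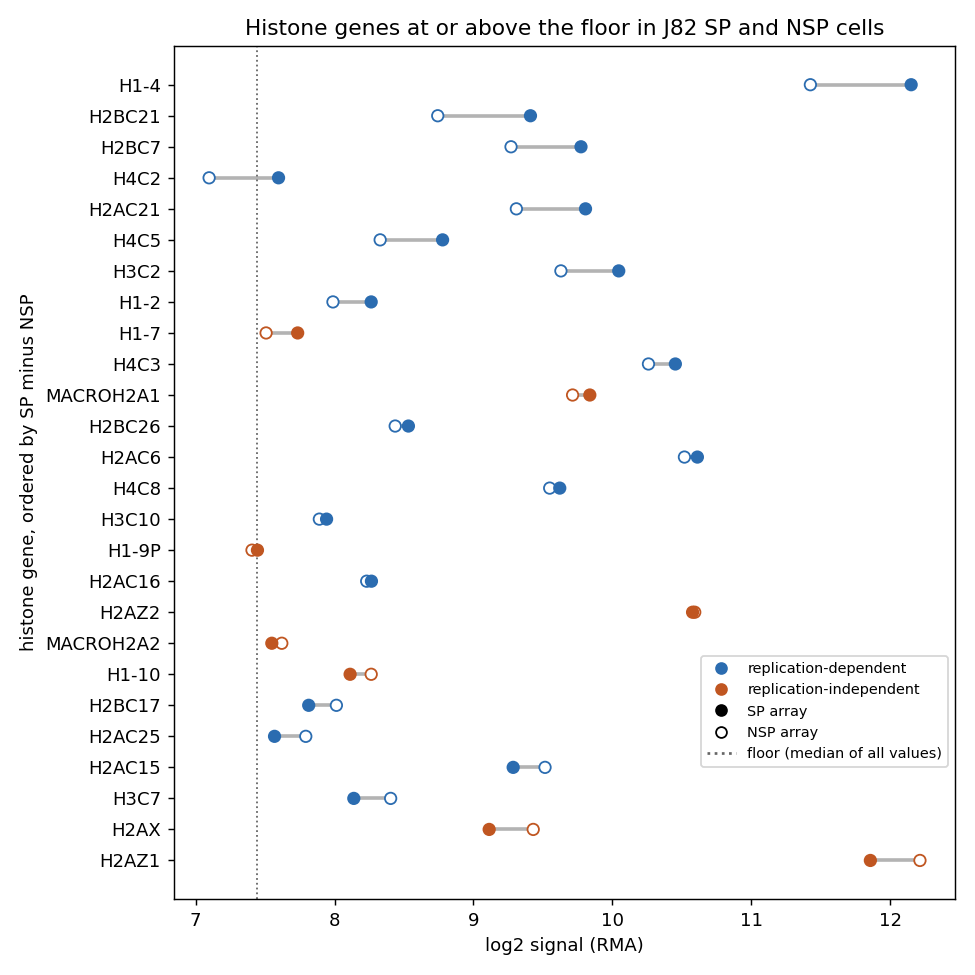
Log2 signal (horizontal axis) of the 26 histone genes at or above the floor on the SP array (filled) and the NSP array (open), ordered by their difference, with the floor of 7.44 dotted. H1-4 stands at the top at 12.15 in SP against 11.43 in NSP, and H2AZ1 at the bottom at 11.86 against 12.22.

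Among linker histones, H1-4 differed most. H1-4 (HIST1H1E), which encodes H1.4, a main linker histone of dividing cells, was at 12.15 in SP and 11.43 in NSP. That is a difference of 0.73, or 1.65-fold, and rank 140 from the top among the 7549 genes at or above the floor. H1-2, which encodes another somatic linker histone, was at 8.26 against 7.99 (1.21-fold). These were the only replication-dependent H1 genes at or above the floor. The other 4 lay under it: H1-1 was higher in SP by 0.17, and H1-5, H1-3 and the testis gene H1-6 had differences of -0.10, -0.12 and -0.37. H1 genes thus ran in both directions, and the 2 at or above the floor were both higher in SP.

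H2A and H2B genes of the HIST2 cluster stood together. H2BC21 (HIST2H2BE), a core H2B gene, was at 9.41 in SP and 8.74 in NSP, which is 1.59-fold. Its neighbour H2AC21 (HIST2H2AB), a core H2A gene, was at 9.81 against 9.31 (1.41-fold). These were the 2 measured genes of that cluster, and both were higher in SP. In the HIST1 cluster, H2BC7 was at 9.77 against 9.27 (1.42-fold).

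The remaining replication-dependent H2A and H2B genes at or above the floor differed by less than 1.2-fold. H2AC6 was at 10.61 in SP and 10.52 in NSP, H2AC16 at 8.27 against 8.23, and H2BC26 at 8.53 against 8.44, all slightly higher in SP. H2AC15 was at 9.29 against 9.52, H2AC25 at 7.57 against 7.79, and H2BC17 at 7.81 against 8.01, all lower in SP. Of the 5 replication-dependent H2A genes at or above the floor 3 were higher in SP, and of the 4 H2B genes 3 were.

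The 3 H4 genes with both values at or above the floor had the higher value in SP, in the deposited values and under each of the 3 scalings tried. H4C2 was at 7.60 in SP and 7.10 in NSP (1.41-fold) and reached the floor only in SP, so its direction came with the filter. H4C5 was at 8.78 against 8.33 (1.37-fold), H4C3 at 10.45 against 10.26 (1.14-fold) and H4C8 at 9.62 against 9.55 (1.05-fold). The H4 proteins encoded by most of these genes are identical, so the genes differ as transcripts and not in product. Over all 11 measured H4 genes 8 were higher in SP, against 6 after removal of a trend on signal level and 7 after quantile normalisation, and the lowest difference was that of H4C4 at 6.41 against 6.85, under the floor.

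H3 genes ran in both directions. H3C2 (HIST1H3B), which encodes the replication-dependent H3.1, was at 10.05 in SP and 9.63 in NSP (1.33-fold). H3C10 was at 7.94 against 7.89, and H3C7 at 8.14 against 8.40, the latter 1.20-fold lower in SP. The largest difference of any member was that of H3C1 (HIST1H3A), at 7.24 in SP and 6.19 in NSP, 2.07-fold, but both values lay under the floor. The replication-independent H3.3 genes H3-3A and H3-3B had no row with a single symbol and are not analysed here as genes.

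**Figure D2:**
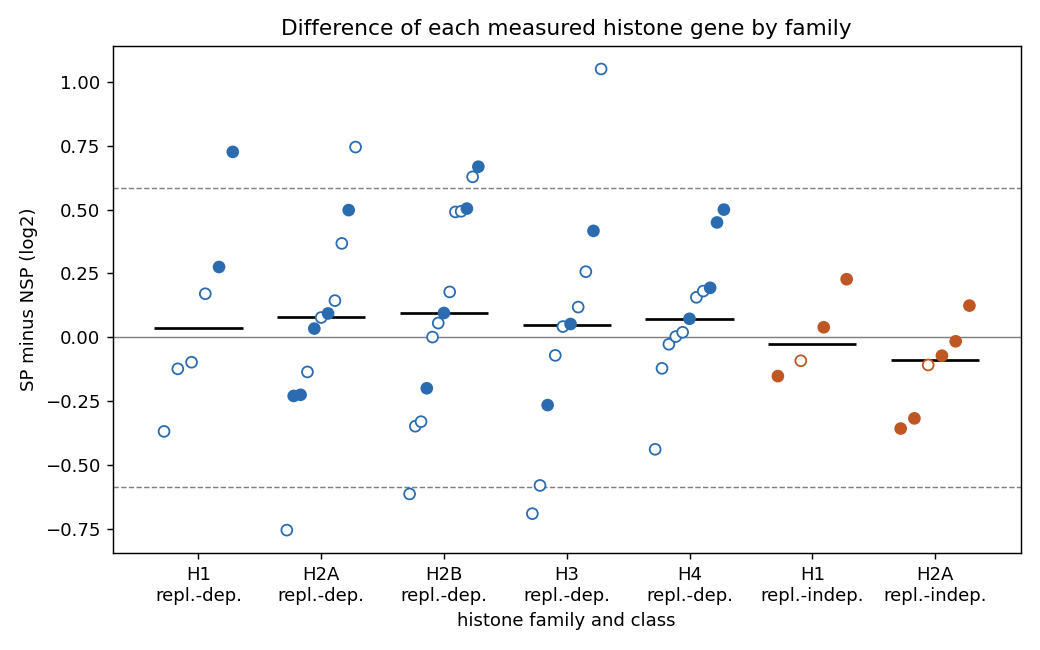
Difference of each of the 61 measured histone genes (SP minus NSP, log2, vertical axis) by family and class; filled points are at or above the floor, open points under it, black bars are medians over the genes of a column and dashed lines mark 1.5-fold. The filled H4 points lie above 0, H4C2 among them having reached the floor only in SP, and the points beyond 1.5-fold below 0 are all open.

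The variant genes differed less, and the most negative differences at or above the floor were among them. H2AZ1, which encodes H2A.Z, a variant placed at promoters, was at 11.86 in SP and 12.22 in NSP, 1.28-fold lower. H2AX, whose product is phosphorylated around DNA breaks, was at 9.11 against 9.43, a difference of -0.32. The second H2A.Z gene, H2AZ2, was at 10.58 against 10.59, and its sign turned after removal of a trend on signal level (0.04). H2AZ1 and H2AZ2, which encode nearly the same protein, thus had differences of -0.36 and -0.02. Neither H2AZ1 nor H2AX reached 1.5-fold, and 607 of the 7549 genes had a lower difference than H2AZ1.

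The macroH2A genes, whose products carry a large extra domain and mark repressed chromatin, gave small differences. MACROH2A1 was at 9.84 in SP and 9.71 in NSP, and MACROH2A2 at 7.55 against 7.62. H2AJ, a variant close to the core H2A, was under the floor at 7.21 against 7.32. Among variant linker histones, H1-10, expressed in most tissues, was at 8.11 against 8.26. The testis gene H1-7 was at 7.73 against 7.51, and the transcribed pseudogene H1-9P at 7.45 against 7.41, just at the floor. The oocyte gene H1-8 was under it at 7.30 against 7.39. None of these 7 differed by more than 1.2-fold.

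Members under the floor varied more than other dim genes did. Of the 35 under it, 19 had the higher and 16 the lower value in SP (median 0.00). The SD of the difference across them was 0.395, against 0.221 across all 6683 genes under the floor, and 10 of the 35 lay outside the central 95% of those genes, 5 on each side. At 1.5-fold, 3 of 35 (8.57%) were higher, against 1.27% of all genes under the floor, and 3 were lower, against 1%. Besides H3C1, those higher were H2AC12 at 5.35 in SP and 4.61 in NSP (1.68-fold) and H2BC5 at 6.75 against 6.13 (1.55-fold). Those lower were H2AC17 at 6.01 against 6.77 (1.69-fold), H3C12 at 4.73 against 5.42 (1.61-fold) and H2BC10 at 3.59 against 4.20 (1.53-fold). The dim members thus spread widely and evenly to both sides. How many probes stand behind each of these values is not given in the sources used here, and the part of that number in the spread was not tested.

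Within HIST1, the largest cluster, 11 of the 14 genes at or above the floor were higher in SP, against 40.1% of all genes that reached it. Most of the 14 lay among the first 30 of the 45 measured genes, and so did most of the 11. The 45 measured members of the cluster were placed in RefSeq gene order and divided at the widest gap between neighbours, which falls between H4C8 and H2BC11. Of the 10 genes at or above the floor before the gap 9 had the higher value in SP (median 0.35), and the exception was H3C7. H4C2, among the 9, reached the floor only in SP, so its direction came with the filter. Of the 4 after the gap 2 were higher, H3C10 and H2AC16, and H2AC15 and H2BC17 were lower, with a median of -0.08. Counting dim genes too, 19 of 30 before the gap and 9 of 15 after it were higher in SP, which is 63.3% and 60.0%. Along all 45 genes the sign changed 25 times. The division was made after the values were seen, and the difference between the blocks was not tested.

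**Figure D3:**
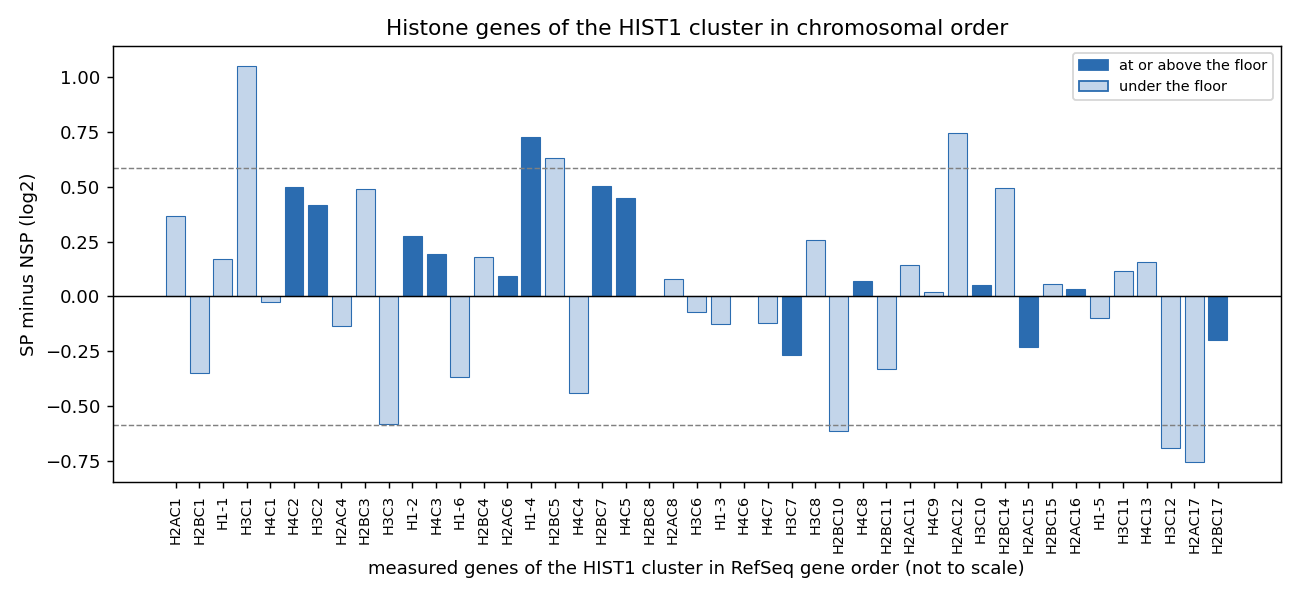
Difference (SP minus NSP, log2) of the 45 measured HIST1 genes in RefSeq gene order, not to scale; dark bars are at or above the floor, pale bars under it, and dashed lines mark 1.5-fold. The dark bars from H4C2 to H4C5 all point up, H4C2 among them having reached the floor only in SP, and those after H4C8 lie within 0.23 of 0.

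Many H2A and H2B genes lie head to head and share the stretch between their starts. There were 7 such pairs with both genes measured, starts within 1000 bases of each other, and the genes of 3 pairs differed in the same direction. In the only pair with both genes at or above the floor, H2AC25 and H2BC26 of the HIST3 cluster, the differences were -0.22 and 0.10. H2AC17 and H2BC17 both had negative differences (-0.75 and -0.20), and H2BC4 and H2AC6 both higher (0.18 and 0.09). The starts of these 3 pairs lie 230, 240 and 246 bases apart. H2BC8 and H2AC8 were at 0.00 and 0.08, and the sign of H2BC8 turned under 2 of the 3 scalings. In the remaining 3 pairs, all with at least 1 gene under the floor, the genes differed in opposite directions.

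A further 8 rows of the table list a histone gene together with at least 1 other gene and cannot be given to either. Row 2946324, which lists an H3 and an H2A gene, was at 9.36 in SP and 8.65 in NSP, a difference of 0.71. Rows 2434031 and 2899194 were under the floor, with differences of 0.79 (7.13 against 6.34) and 0.97 (3.60 against 2.63). The other 5 rows had differences between -0.10 and 0.20. The 3 with large differences were all higher in SP, but they were picked by size and only row 2946324 reached the floor. Single-symbol members under the floor spread to both sides, so no direction is read from the dim rows.

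Genes of S phase and of histone supply mostly had the lower value in SP, as did 59.6% of the 7549 genes that reached the floor, whose median was -0.05. Of 30 measured S phase genes 24 (80.0%) had the lower value in SP, the median being -0.22, and 0 reached 1.5-fold. The clamp loader gene RFC5 was at 8.47 in SP and 9.01 in NSP (1.45-fold lower), the replication licensing gene CDC6 at 8.99 against 9.34 (1.28-fold lower), and UHRF1, a maintenance methylation factor, at 8.36 against 8.72 (1.29-fold lower). GINS2, of the replicative helicase, was 1.32-fold and the polymerase gene POLD1 1.27-fold lower. These genes were named for the size of their differences, and others of the list were nearly level. The 6 genes higher in SP were CCNE2 (0.19), MCM2 (0.10), CDT1 (0.05), RRM1 (0.03), MCM3 (0.01) and RRM2 (0.01), and E2F1 was at -0.01. Under the 3 other scalings 21 to 23 of the 30 were lower (70.0% to 76.7%), against 51.3% to 57.7% of all genes that reached the floor. The medians of S phase genes and of replication-dependent histones thus lay on opposite sides of 0, at -0.22 and 0.07, a difference that was not tested. The sets are unlike in brightness, with 1 of 30 S phase genes but 33 of 51 such histones under the floor. Over genes at or above the floor the medians were -0.24 and 0.14.

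Genes that transcribe and process histone mRNA gave a similar count, with CCNE1, CCNE2 and SLBP counted both here and among the S phase genes. Of 22 measured genes 18 (81.8%) had the lower value in SP, against 59.6% of all genes that reached the floor. The median was -0.20 and none reached 1.5-fold, and under each of the 3 other scalings 17 were lower. CCNE1, the cyclin that with CDK2 switches on histone transcription, was at 8.85 in SP and 9.33 in NSP (1.39-fold lower), and CDK2 at 9.70 against 10.07 (1.29-fold lower). The other cyclin E gene, CCNE2, was at 7.74 against 7.54, 1.14-fold higher, and was 1 of the 4 higher genes of the list. HINFP, an activator of H4 genes, was at 8.47 against 8.83 (1.29-fold lower). LSM1, of the complex that degrades histone mRNA, was 1.36-fold lower, the cap-binding gene NCBP2 1.26-fold lower, and CPSF2, of the cleavage complex, 1.23-fold lower. SLBP, which binds the histone stem-loop, was at 9.52 against 9.54. SLBP and CCNE2 are named after their values were seen. H4C5, H4C3 and H4C8 reached the floor on both arrays and differed in the opposite direction to HINFP. The difference of H4C8 was only 0.07.

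Histone chaperones and deposition factors, which carry histones to DNA, had a median difference of -0.10 over 29 measured genes, of which 24 were lower (82.8%) and 5 higher in SP. Under the 3 other scalings 19 to 21 were lower and 8 to 10 higher, a lower share of 65.5% to 72.4% against the 51.3% to 57.7% of all genes given above. ASF1B, the chaperone of H3 and H4 in dividing cells, was at 9.43 in SP and 10.05 in NSP, 1.53-fold lower, and was the only member of the list at 1.5-fold. CHAF1A, of the complex that deposits H3 and H4 behind the fork, was at 8.81 against 9.28 (1.39-fold lower). ANP32E, which removes H2A.Z from chromatin, was at 8.01 against 8.54 (1.45-fold lower), beside the lower H2AZ1. The remodeller gene INO80 was at 8.68 against 8.29 (1.31-fold higher). MCM2 is counted both in this list and among the S phase genes. CENPA, the centromeric H3 variant, and OIP5, which helps load it, were 1.31-fold and 1.38-fold lower. The part of cell cycle stage in any of the histone differences was not tested.

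**Figure D4:**
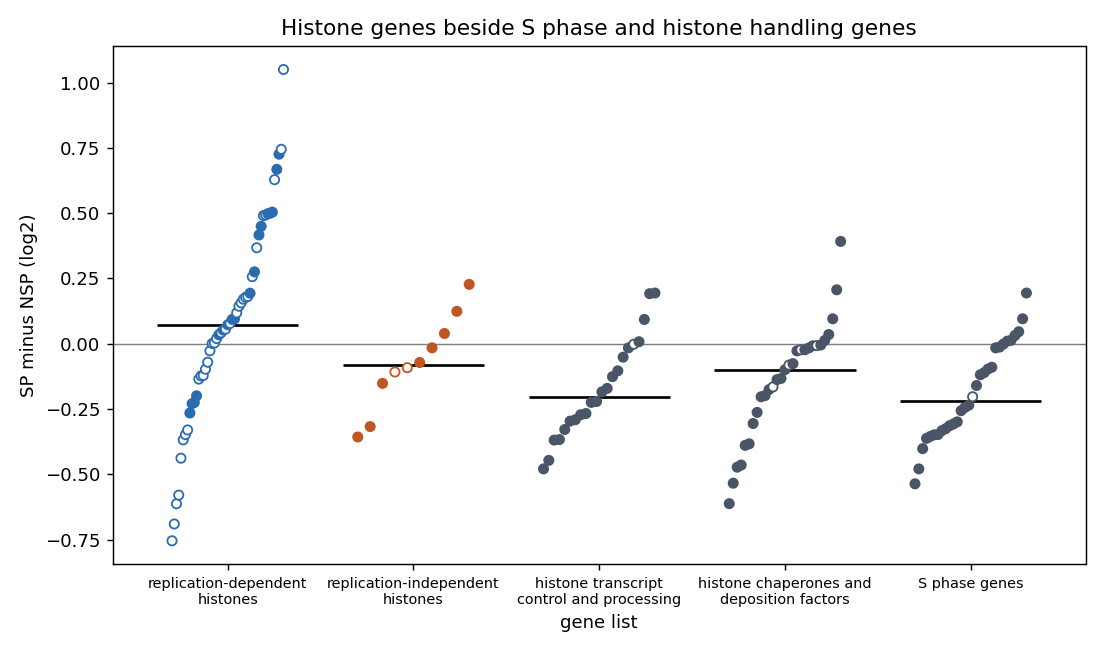
Difference (SP minus NSP, log2) of each measured gene in the 2 histone classes and 3 related gene lists; filled points are at or above the floor, open points under it, and black bars are medians over all genes of a list. The medians are 0.07 for replication-dependent and -0.08 for replication-independent histones, -0.20 for transcript control and processing, -0.10 for chaperones and -0.22 for S phase genes.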

How the data were processed

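The deposited log2 values of 2 arrays (SP and NSP, 1 each) were used; per the submitters' processing notes the authors made them with RMA and Partek. The sources used here name no version, probe set definition, genome build or filter. The precision is limited by the number of arrays, and no detection call could be made.

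Of 22011 rows, 14432 carry 1 gene symbol in the platform annotation, 2408 carry several and 5171 carry none. The Entrez identifier gave current RefSeq symbols (GRCh38.p14) for 14404. Rows of 1 gene were averaged. Of the members, 59 matched by current symbol and 2 (H2AJ and H3-4) by old name only. The members, lists and alternatives were chosen with earlier results of these data known.

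No test was run, since each group has 1 sample. Genes were counted at 1.5-fold with a floor at the median of all values. All histone genes at or above the floor, all variants, and those under it beyond 1.5-fold were named, with up to 6 genes of each related list; a few others were named after their values were seen. Counting was tested on simulated data. Python 3.11.15, numpy 2.4.6, pandas 2.3.3, statsmodels 0.14.6 and matplotlib 3.10.9 were used.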

Additional observations from a re-analysis of the deposited data

How the results depend on the processing

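Centring, subtraction of a lowess fit (span 0.3) and quantile normalisation turned the sign of none of the 4 medians and left the counts at 1.5-fold as they were. Taking the brightest row or each row singly could change nothing, since all 61 genes have 1 row, and the count of 36 higher genes used no floor. A total of 6 counts moved by construction of the setting, and other shifts were not counted among them. The count of 36 became 34 after lowess subtraction or quantile normalisation. It became 35 without pseudogenes or without the most different gene, and 41 with rows of several symbols added. With those rows the count at least 1.5-fold higher was 3, in place of 2. With no floor, 5 histone genes were at least 1.5-fold higher and 3 lower, in place of 2 and 0. At 2-fold 0 were higher, and at the lower fold threshold tried 7 were higher and 1 lower. The share of all genes at these other thresholds is not given here, so these counts describe the settings alone. With the floor required on both arrays, 15 of 24 genes were higher in SP. Lowess subtraction gave a median of 0.15 for the histone genes at or above the floor, in place of 0.08, and quantile normalisation gave 0.10. With the rows of several symbols added, the median of replication-independent genes was -0.03, in place of -0.08. No paired analysis was possible because each population has 1 array, and for the same reason no replicate could be left out. Dim rows, closely related gene copies and the single array per population limit every value above.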
